A study of Mus musculus with 6 samples.

Results

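The basal layer of the mammary gland is built of myoepithelial cells, which carry the machinery of smooth muscle and squeeze milk out of the alveoli when oxytocin binds its receptor. This account follows 10 genes of that cell type, chosen by gene name, in RNA-sequencing of HC11 cells with and without BMP7. They are *Trp63*, which encodes p63, the transcription factor of basal epithelial layers, *Oxtr*, which encodes the oxytocin receptor, and 8 genes of the contractile apparatus, namely the smooth-muscle actins *Acta2* and *Actg2*, the smooth-muscle myosin heavy chain *Myh11*, the regulatory myosin light chain *Myl9*, the myosin light chain kinase *Mylk*, the tropomyosin *Tpm2*, and the actin-binding proteins calponin (*Cnn1*) and transgelin (*Tagln*). All 10 were among the 55809 genes counted, and edgeR's expression filter left 6 of them among the 15733 genes tested. In myoepithelium, p63 sits at the top of the basal identity. There and in smooth muscle, the contractile genes are driven mainly by serum response factor and its cofactors of the myocardin family. These act at CArG boxes in the promoters. The oxytocin receptor couples through Gq to phospholipase C, inositol trisphosphate and calcium release, and calcium-calmodulin then activates myosin light chain kinase, which phosphorylates the light chain and sets myosin moving along actin.

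HC11 cells are epithelial cells of the mouse mammary gland, kept as a line and used by the study as luminal cells. Poly(A) RNA was taken from HC11 cultured in medium without BMP7 (Ctrl, 3 libraries) or in medium with BMP7 (3 libraries), and no other agent or genotype distinguished the groups. The cells had been starved before stimulation, and the sources used here do not name the duration of the BMP7 stimulation for sequencing. Libraries are named by the numbers of their columns, which are 1, 2 and 3 for Ctrl and 1, 3 and 4 for BMP7. Totals ran from 14607938 to 23748970 counted fragments per library, and nothing in the labels says that the libraries came from separate cultures, so p-values measure only the spread between these libraries.

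The treatment and the line were checked on other genes. All 5 direct BMP targets listed (*Id1*, *Id2*, *Id3*, *Smad6* and *Smad7*) rose, with a median log2 fold change of 2.82. The basal keratins *Krt14* and *Krt5* were far above the luminal keratins *Krt8* and *Krt18* in this line. *Krt14* stood at 1985 FPKM ± 71.5 (SD, n = 3) and *Krt5* at 1203 ± 19.4 in Ctrl, against 32.3 ± 2.34 for *Krt8* and 34.4 ± 1.01 for *Krt18*. *Krt15*, listed below with the p63 and basal adhesion genes, was far lower than *Krt14* and *Krt5*. *Krt17*, *Krt7* and *Krt19* are not compared here. FPKM values are counts scaled for both exon length and library size, after TMM normalization, and are the scale on which levels of different genes are compared. The progesterone receptor *Pgr* and the milk protein genes *Csn2*, *Csn3* and *Wap* were at or under 3 counts in all 6 libraries. BMP7 replicates 3 and 4 stood apart in genes of other cell types. The summed level of 16 adipocyte markers was 165 and 149 CPM (counts scaled for library size alone, after TMM normalization) in these libraries, while BMP7 replicate 1 gave 89.4 and Ctrl libraries 89.3 to 103. The sum of 16 macrophage markers was 34.3 and 33.5 CPM in them, while BMP7 replicate 1 gave 64.4 and Ctrl libraries 62.9 to 68.2. The members' values are therefore given with and without these libraries.

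The 10 genes spanned over 3 orders of magnitude in untreated HC11 cells, and the order of their median levels in Ctrl fell into 3 genes above 1 FPKM and 7 below it. *Tpm2* was highest, at 49.8, 58.5 and 57.9 FPKM in Ctrl replicates 1, 2 and 3. *Trp63* followed at 27.4, 29.1 and 28.6 FPKM, and *Oxtr* at 2.93, 1.96 and 2.83. Each of these 3 genes was above the next in every Ctrl library, by 2.02-fold between the medians of *Tpm2* and *Trp63*, by 10.1-fold between *Trp63* and *Oxtr*, and by 8.46-fold between *Oxtr* and *Mylk*. Among the genes tested, 94.2% had a lower level than *Tpm2*, 87.4% a lower level than *Trp63* and 32.6% a lower level than *Oxtr*.

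The other 7 genes were all below 0.5 FPKM in every Ctrl library. *Mylk* was at 0.402, 0.266 and 0.334 FPKM, *Acta2* at 0.241, 0.336 and 0.245, and *Tagln* at 0.339, 0.148 and 0.0984. *Actg2* was at 0.217, 0.0631 and 0.126 FPKM and *Myh11* at 0.0190, 0.0647 and 0.0257. *Cnn1* had 1, 0 and 4 counts in the Ctrl libraries, and *Myl9* had none. From *Mylk* downwards, no gene was separated from its neighbour in this order beyond the spread of the 3 libraries. The *Tagln* values and its place in the order are too low, since fragments in 67.9% of its exon bases were not counted while its full length was used. Measured against the markers that define a myoepithelial cell, the HC11 libraries thus held *Trp63*, *Krt5* and *Krt14* at high levels and *Oxtr* at a low level. The smooth-muscle actins, myosin and calponin were below 0.5 FPKM, as was the incomplete value of transgelin.

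**Figure D1:**
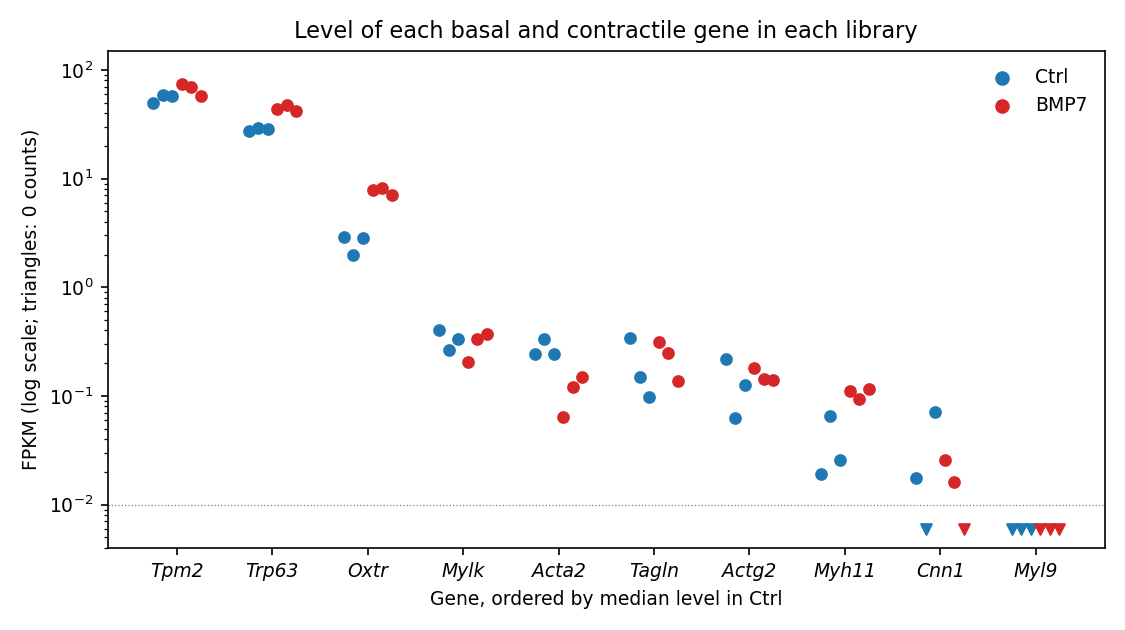
Level of each of the 10 genes in each library, in FPKM on a log scale, with genes ordered by their median in Ctrl (blue, 3 libraries) and with BMP7 in red (3 libraries). Triangles under the dotted line mark libraries with 0 counts. *Tpm2*, *Trp63* and *Oxtr* stand apart from the other genes, which are all below 0.5 FPKM, and *Myl9* has 0 counts throughout. The values of *Tagln* are too low, since fragments in its shared exon bases were not counted.

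With BMP7, 3 of the 10 genes rose and none was called lower. *Oxtr* rose 2.98-fold, *Trp63* 1.56-fold and *Tpm2* 1.21-fold, while *Acta2*, *Myh11* and *Mylk* were tested and did not pass, and *Actg2*, *Cnn1*, *Tagln* and *Myl9* had too few counts to be tested. A gene was called in edgeR's quasi-likelihood test at a Benjamini-Hochberg adjusted p under 0.05 over all genes tested and a fold change over 1.2, which 942 of the 15733 genes tested (5.99%) met as higher with BMP7 and 846 (5.38%) as lower, 1788 (11.4%) in all. At an unadjusted p under 0.05, 4 of the 6 genes tested were higher and 1 was lower, beside 2067 higher and 2058 lower of all 15733. These include *Myh11* (higher) and *Acta2* (lower), which passed the filter only through the group where they were higher. DESeq2 called 3 higher and 0 lower, beside 5.88% and 4.7% of all genes. With a fold change over 2, *Oxtr* alone of the 10 was called higher (1.6% of all genes), and a test against the fold of 1.2 itself (glmTreat) called *Oxtr* and *Trp63* (3.14% of all genes). A fit without BMP7 replicates 3 and 4, added once the data had been seen, kept 1 BMP7 library. Its log2 fold changes were 1.61 for *Oxtr*, 0.63 for *Trp63* and 0.41 for *Tpm2*.

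*Trp63*, at chr16:25502513-25710852 on the plus strand in the coordinates of the deposited counts, carries 8391 exon bases. Its level was 230, 244 and 240 CPM in Ctrl replicates 1, 2 and 3, and 368, 396 and 349 CPM in BMP7 replicates 1, 3 and 4. Every BMP7 library was above every Ctrl library, and the spread within each group was small beside the gap. The mean went from 238 CPM ± 7.23 to 371 ± 23.6 (SD, n = 3), a log2 fold change of 0.64 (SE 0.063, 95% interval 0.51 to 0.78, adjusted p = 2.08e-06). BMP7 replicate 1 alone against Ctrl gave 0.63 (adjusted p = 3.98e-05). Non-overlapping groups with BMP7 above are common in these data, at 14.8% of genes tested, and an exact two-sided permutation test of 3 libraries against 3 cannot give a p below 0.1, the value it gave here. The p53 family is otherwise made of *Trp53* and *Trp73*. *Trp53* stood at 50.8 FPKM ± 1.52 in Ctrl and 49.0 ± 6.20 with BMP7 (SD, n = 3), with a log2 fold change of -0.05 (adjusted p = 0.739), and *Trp73* had at most 5 counts in any library and was not tested. Counts are summed over all *Trp63* exons, so they do not separate the TAp63 and ΔNp63 forms, which start at different promoters.

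*Oxtr* lies at chr6:112450644-112466904 on the minus strand, with 4790 exon bases. Its level was 14.0, 9.39 and 13.5 CPM in Ctrl replicates 1, 2 and 3, and 37.6, 39.0 and 33.6 CPM in BMP7 replicates 1, 3 and 4. The lowest BMP7 library was 2.40 times the highest Ctrl library. The mean went from 12.3 CPM ± 2.55 to 36.7 ± 2.79 (SD, n = 3), with a log2 fold change of 1.58 (SE 0.12, 95% interval 1.32 to 1.83, adjusted p = 1.35e-07). Without BMP7 replicates 3 and 4 the log2 fold change was 1.61 (adjusted p = 1.76e-05). On the per-length scale the receptor went from 2.57 FPKM ± 0.532 to 7.67 ± 0.582. The vasopressin receptors *Avpr1a*, *Avpr1b* and *Avpr2*, its relatives in sequence, had at most 6 counts in any library and were not tested. Of the exon bases of *Avpr2*, 81.3% are shared with *Arhgap4* on the other strand. Fragments there were not counted, so the level of *Avpr2* may be too low.

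*Oxtr* rose by more than *Trp63*. The log2 ratio of *Oxtr* to *Trp63* in CPM was -4.04, -4.70 and -4.15 in Ctrl replicates 1, 2 and 3, and -3.29, -3.35 and -3.38 in BMP7 replicates 1, 3 and 4, so the groups did not overlap. The means were -4.29 ± 0.355 and -3.34 ± 0.0441 (SD, n = 3), a difference of 0.96 (exact two-sided permutation test, p = 0.1, the smallest it can give).

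*Tpm2*, a tropomyosin that lies along actin filaments, is at chr4:43514711-43523765 on the minus strand with 2909 exon bases. It measured 145, 170 and 168 CPM in Ctrl replicates 1, 2 and 3, and 214, 203 and 168 CPM in BMP7 replicates 1, 3 and 4. The groups overlapped, since BMP7 replicate 4 was below Ctrl replicates 2 and 3. The mean went from 161 CPM ± 14.0 to 195 ± 23.9 (SD, n = 3), a log2 fold change of 0.27 (SE 0.085, 95% interval 0.09 to 0.45, adjusted p = 0.0421), which is barely past both thresholds. The call was lost, with the direction kept, under upper-quartile scaling (adjusted p = 0.0548) and without Ctrl replicate 1 (0.20, adjusted p = 0.199), Ctrl replicate 2 (0.31, adjusted p = 0.0799), Ctrl replicate 3 (0.31, adjusted p = 0.0581), BMP7 replicate 1 (0.20, adjusted p = 0.152) or BMP7 replicate 3 (0.24, adjusted p = 0.135). BMP7 replicate 1 alone against Ctrl gave 0.41 (adjusted p = 0.0101).

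**Figure D2:**
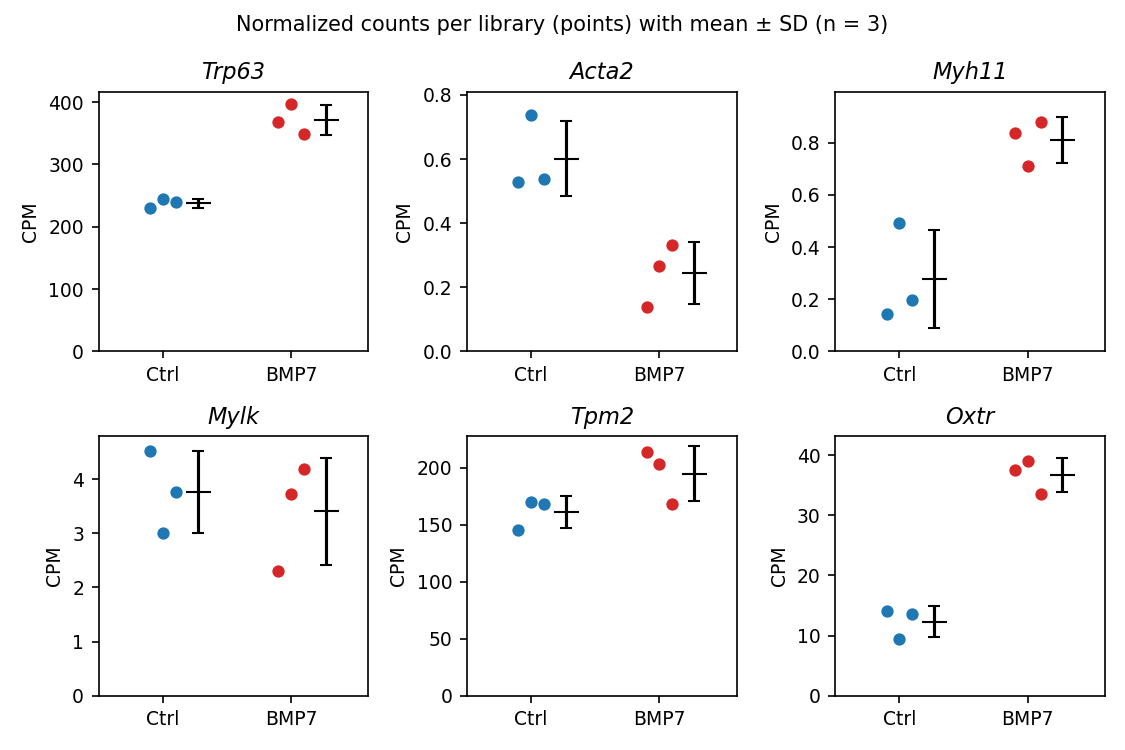
CPM (linear scale) of the 6 genes that passed the expression filter, with each library as a point (Ctrl blue, BMP7 red) and the mean ± SD (n = 3) beside it in black. *Trp63* and *Oxtr* are higher in every BMP7 library, *Tpm2* and *Mylk* overlap between groups, and *Acta2* and *Myh11* stay below 1 CPM.

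The classical smooth-muscle genes were measured next, beginning with their promoters, because the CArG boxes that bind serum response factor are the best known control elements of this set. A promoter was on hand for 6 of the 10 genes (RefSeq, GRCm38.p6, 250 bases before to 50 bases from the start), and not for *Trp63*, *Actg2*, *Myh11* and *Tagln*. Those of *Acta2*, the defining smooth-muscle actin, at chr19:34255324-34255623 (minus strand), and of *Myl9*, at chr2:156775214-156775513 (plus strand), are shown with CArG and CArG-like boxes in capitals, and that of *Oxtr*, the gene with the clearest rise, at chr6:112489776-112490075 (minus strand), with CpG dinucleotides in capitals. A CArG-like box is here a CArG box with 1 G or C in its A/T core. Both read the same on both strands in this search.
*Acta2*: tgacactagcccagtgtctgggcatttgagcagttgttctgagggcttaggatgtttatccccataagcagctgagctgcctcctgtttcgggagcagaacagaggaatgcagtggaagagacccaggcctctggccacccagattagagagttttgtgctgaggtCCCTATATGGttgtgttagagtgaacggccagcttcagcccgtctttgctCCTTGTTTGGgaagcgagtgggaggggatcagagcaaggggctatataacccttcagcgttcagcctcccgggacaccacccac
*Myl9*: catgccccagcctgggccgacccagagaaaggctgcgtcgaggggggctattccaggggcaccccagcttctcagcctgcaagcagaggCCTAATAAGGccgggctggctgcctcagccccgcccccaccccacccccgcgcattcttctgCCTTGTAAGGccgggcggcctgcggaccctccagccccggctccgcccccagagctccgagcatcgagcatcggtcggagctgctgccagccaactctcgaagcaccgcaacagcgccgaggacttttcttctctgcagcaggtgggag
*Oxtr*: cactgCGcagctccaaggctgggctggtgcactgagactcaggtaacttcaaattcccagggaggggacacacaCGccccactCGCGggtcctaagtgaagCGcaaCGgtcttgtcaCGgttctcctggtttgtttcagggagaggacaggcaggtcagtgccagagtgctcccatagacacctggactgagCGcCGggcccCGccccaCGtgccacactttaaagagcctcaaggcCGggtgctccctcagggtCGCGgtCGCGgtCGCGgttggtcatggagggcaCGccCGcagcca
The *Acta2* promoter holds 2 CArG-like boxes, at -84 to -75 and -34 to -25 from the start. The *Myl9* promoter holds 1 CArG box, at -161 to -152, and 1 CArG-like box, at -99 to -90. Of 32851 promoters of this length, 1.63% hold a CArG box and 8.5% a CArG-like box. None was found in the windows of *Oxtr*, *Tpm2*, *Cnn1* or *Mylk*. *Oxtr*, *Tpm2* and *Myl9* each hold 20 CpG dinucleotides in this window, against 6 in *Acta2* and *Cnn1*, 4 in *Mylk* and a median of 7 over all promoters.

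*Acta2*, at chr19:34218490-34232990 on the minus strand with 2196 exon bases, had 11, 15 and 11 counts in Ctrl replicates 1, 2 and 3, and 2, 6 and 6 counts in BMP7 replicates 1, 3 and 4. In CPM this was 0.530, 0.737 and 0.538 against 0.139, 0.267 and 0.331. Every BMP7 library was below every Ctrl library, as for 15.1% of genes tested. The filter passed *Acta2* only through Ctrl, the group where it was higher, so this gap and the fold change depend in part on the filter. The log2 fold change was -1.23 (SE 0.50, 95% interval -2.28 to -0.18) and did not pass the test (adjusted p = 0.120). Without BMP7 replicates 3 and 4 it was -2.06 (adjusted p = 0.263).

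*Myh11*, at chr16:14012399-14109236 on the minus strand with 7599 exon bases, had 3, 10 and 4 counts in Ctrl and 12, 16 and 16 with BMP7. Its level was 0.144, 0.492 and 0.196 CPM in Ctrl replicates 1, 2 and 3, and 0.836, 0.711 and 0.881 CPM in BMP7 replicates 1, 3 and 4. The groups did not overlap, with BMP7 above, as for 14.8% of genes tested. The log2 fold change of 1.52 (SE 0.49, 95% interval 0.47 to 2.56) was close in size to that of *Oxtr* but did not pass the test (adjusted p = 0.0513). Without Ctrl replicate 2, the highest Ctrl library, the log2 fold change was 2.20 and passed (adjusted p = 0.0298), and without BMP7 replicates 3 and 4 it was 1.58 (adjusted p = 0.295). *Acta2* and *Myh11* therefore had estimates of opposite sign, each from at most 16 counts in a library. *Myh11* passed the filter only through BMP7 and *Acta2* only through Ctrl, in each case the group where it was higher. Their fold changes and lack of overlap thus depend in part on the filter. Neither gene entered the fit that required at least 10 counts in every library.

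*Mylk*, at chr16:34565580-34822790 on the plus strand with 11263 exon bases, was at 4.53, 3.00 and 3.77 CPM in Ctrl and 2.30, 3.73 and 4.19 CPM with BMP7. The groups overlapped and the lowest library was BMP7 replicate 1. The log2 fold change was -0.12 (SE 0.23, 95% interval -0.61 to 0.37, adjusted p = 0.791), and its sign turned without Ctrl replicate 1 (0.03) or BMP7 replicate 1 (0.07). BMP7 replicate 1 alone against Ctrl gave -0.71 (adjusted p = 0.217). Of its exon bases, 6.85% are shared with the antisense genes *E130310I04Rik* and *Gm21691*, and fragments there were not assigned.

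The remaining 4 genes were below the filter. *Actg2* (chr6:83489887-83513247, minus strand) had 7, 2 and 4 counts in Ctrl and 4, 5 and 4 with BMP7. *Tagln* (chr9:45840917-45847356, minus strand) had 14, 6 and 4 counts in Ctrl and 9, 11 and 5 with BMP7. For this gene the counts are incomplete by construction, since 67.9% of its exon bases are shared with *Gm48529* and *Pcsk7* on the other strand and fragments in shared bases were left out. *Cnn1* (chr9:22010512-22020926, plus strand) had 1, 0 and 4 counts in Ctrl and 1, 1 and 0 with BMP7. When every gene with a count was tested (29894 genes), none of the 3 passed, with adjusted p values of 0.948 for *Actg2*, 0.881 for *Tagln* and 0.762 for *Cnn1*, and a change was not detectable at this depth.

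*Myl9* (chr2:156617340-156623578, plus strand, 1162 exon bases) had 0 counts in all 6 libraries. A count of 0 allows up to 3 counts, which corresponds to 0.115 to 0.180 FPKM depending on the library, for counting error only. The gene shares no exon base with another gene of the annotation and had no copy at 95% identity over at least 100 bases among the GENCODE vM21 transcripts. Its closest relatives, *Myl12a* and *Myl12b*, matched at up to 89.7%. The neighbouring gene *Dlgap4* had 1231 to 2226 counts per library. Whether the 0 reflects the cells or the way fragments were aligned and counted was not tested, and comparisons with *Myl9* carry this limit.

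**Figure D3:**
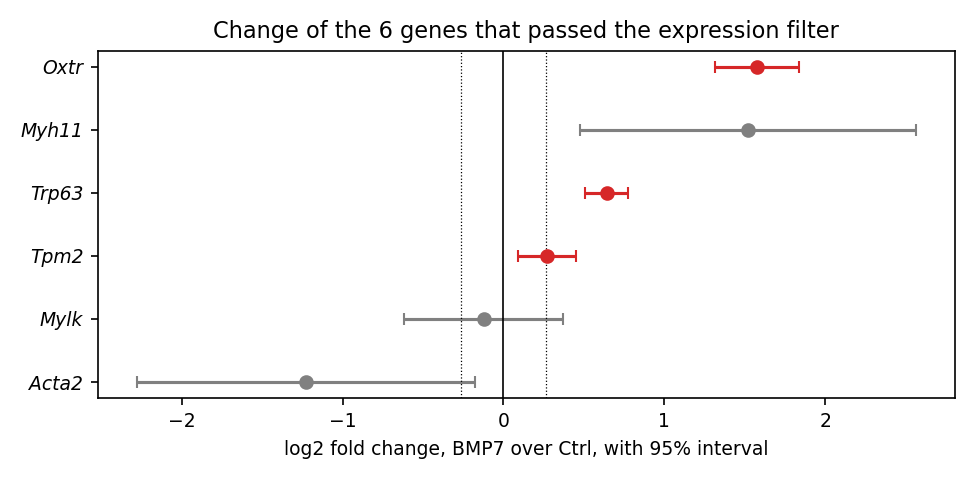
Log2 fold change (BMP7 over Ctrl) of the 6 genes tested, with its 95% interval, genes called in red and others in grey, and dotted lines at a fold change of 1.2 in either direction. *Oxtr*, *Trp63* and *Myh11* have intervals clear of the dotted lines, and *Tpm2* lies on the line. The intervals are not adjusted for the number of genes tested, and *Myh11* was not called (edgeR adjusted p = 0.0513). The intervals of *Myh11* and *Acta2*, which rest on few counts, are wide and lie on opposite sides of 0.

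The smooth-muscle genes other than *Mylk* have relatives that serve the cytoskeleton of cells in general, and these were measured beside them. Cytoskeletal actins, myosins, calponins and transgelin were abundant in the HC11 libraries where the smooth-muscle forms were below 0.5 FPKM. Cytoplasmic actin *Actb* was at 797 FPKM ± 38.6 (SD, n = 3) in Ctrl and 2424 to 15785 times the level of *Acta2* over the 6 libraries, and *Actg1* was at 199.8 ± 12.6. Non-muscle myosin *Myh9* was at 46.6 ± 1.31 FPKM in Ctrl and 414 to 2398 times the level of *Myh11* over the 6 libraries, with *Myh14* at 31.3 ± 1.29 and *Myh10* at 16.2 ± 0.408. *Cnn3* was at 48.8 FPKM ± 2.31 and *Cnn2* at 23.0 ± 1.39, beside 0.0297 ± 0.0373 for *Cnn1*. *Tagln2* was at 148 FPKM ± 8.97 and 411 to 1598 times the level of *Tagln* over the 6 libraries, a ratio that is too high because the shared exon bases of *Tagln* add to its length and not to its counts. *Myl12a*, a non-muscle regulatory light chain, was at 20.4 FPKM ± 0.296 and *Myl12b* at 1.55 ± 0.306, while *Myl9* had no counts. *Tpm2* differed from this pattern. *Tpm1* (64.9 FPKM ± 1.58) was at 0.842 to 1.29 times its level over the 6 libraries. *Tpm4* (73.5 ± 0.758) was above it in each library, at 1.07 to 1.49 times, and *Tpm3* (7.27 ± 0.690) was below it in each.

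Of the 25 relatives in the list, 16 were tested, 3 rose and none was called lower (2 were lower at an unadjusted p under 0.05, and DESeq2 called 3 higher and 0 lower). The median log2 fold change was 0.07, against -0.01 over all genes tested. The risers were *Myl12a* (0.39, adjusted p = 0.00215), *Myh14* (0.29, adjusted p = 0.00290) and *Actb* (0.27, adjusted p = 0.0153), and without Ctrl replicate 2 only 1 relative was called higher. A relative (1 in each case) was called lower under upper-quartile scaling, with no filter on low counts, and without Ctrl replicate 1, Ctrl replicate 2 or BMP7 replicate 1. Between *Acta2* and *Actg1*, and between *Actg2* and *Acta1*, transcripts matched only below 95% identity. Of the exon bases of *Myl12a*, 19.9% are shared with other genes, as are 26.7% of those of *Myl12b*, and fragments there were not counted, so both levels may be too low.

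**Figure D4:**
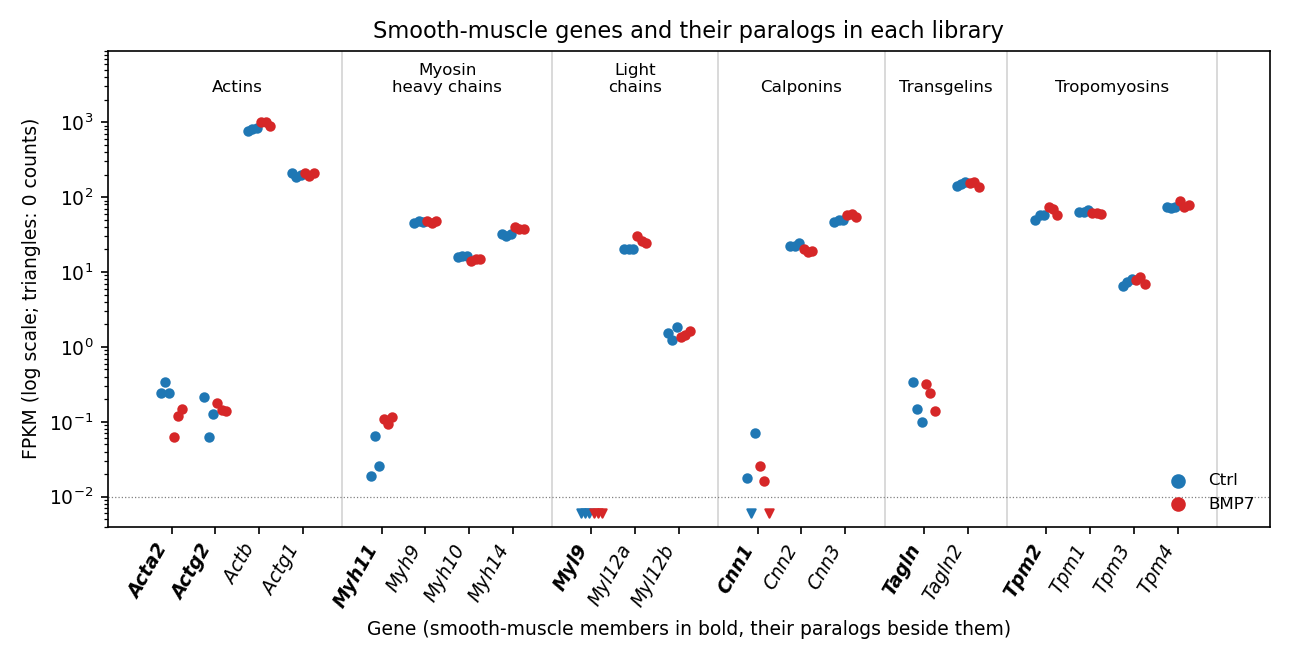
FPKM on a log scale of the smooth-muscle genes (bold) beside their cytoskeletal relatives, with 3 Ctrl libraries in blue and 3 BMP7 libraries in red, and triangles for libraries with 0 counts. *Acta2*, *Actg2*, *Myh11*, *Cnn1*, *Tagln* and *Myl9* lie far below their relatives in every library, and *Tpm2* lies among its own. Whether the 0 counts of *Myl9* reflect the cells or the alignment and counting was not tested. The *Tagln* values are too low, since fragments in its shared exon bases were left out.

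The wider contractile set moved in both directions. Of 41 further smooth-muscle contraction genes, 34 were tested, 9 rose, 3 fell and 22 did not pass, with a median log2 fold change of 0.04. The largest rises were in *Aoc3*, an amine oxidase of smooth muscle and adipocytes (1.73, adjusted p = 0.0183), *Lmod1*, the smooth-muscle leiomodin that nucleates actin (1.49, adjusted p = 0.0210), and *Palld*, which encodes the actin-bundling palladin (0.74, adjusted p = 9.31e-07). The call of *Lmod1* was lost in DESeq2, in glmTreat, and without Ctrl replicate 1, Ctrl replicate 2, BMP7 replicate 3, BMP7 replicate 4, or BMP7 replicates 3 and 4. *Palld* went from 244, 272 and 265 CPM in Ctrl to 424, 470 and 411 CPM with BMP7, whereas *Lmod1* ranged from 0.289 to 0.440 CPM over Ctrl libraries and reached 0.906 to 1.16 CPM with BMP7. *Lmod1* had 6, 7 and 9 counts in Ctrl and 13, 22 and 21 with BMP7. The filter passed *Lmod1* only through BMP7, the group where it was higher, so its fold change and call depend in part on the filter. *Aoc3* overlapped between groups, at 0.819, 0.295 and 0.734 CPM in Ctrl replicates 1, 2 and 3 and 0.767, 3.11 and 2.09 CPM in BMP7 replicates 1, 3 and 4, and so was higher than all Ctrl libraries only in the BMP7 libraries that were also higher in adipocyte markers. The part of other cell types in this result was not tested. The calcium release channel *Itpr1* (-0.71, adjusted p = 2.06e-04), the LIM protein *Fhl2* (-0.63, adjusted p = 0.0108) and filamin A (*Flna*, -0.45, adjusted p = 5.67e-04) fell. The count of genes that rose was 4 without Ctrl replicate 2, and the count that fell was 6 under upper-quartile scaling, without BMP7 replicate 4, and without BMP7 replicates 3 and 4.

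Among 24 regulators of smooth-muscle transcription, 19 were tested, 4 rose and 1 fell, with a median log2 fold change of 0.02. *Hey1*, a Notch and BMP target, went from 17.2, 17.5 and 20.3 CPM to 56.2, 66.3 and 53.9 CPM (1.68, adjusted p = 2.51e-09). The MADS-box factor *Mef2c* (0.81, adjusted p = 2.13e-06) and the ternary complex factor *Elk3* (0.30, adjusted p = 0.00456) also rose, and the receptor *Notch3*, which maintains vascular smooth muscle, fell (-0.83, adjusted p = 2.35e-05). The number that fell was 3 under upper-quartile scaling and 2 without Ctrl replicate 1 or BMP7 replicate 4. The factors that act at CArG boxes were looked at by name after their values were seen. Serum response factor *Srf* rose slightly, from 52.3 CPM ± 3.63 to 63.8 ± 2.43 (SD, n = 3) (0.29, adjusted p = 0.0109), the cofactor *Mrtfa* passed the test but not the fold threshold (0.20, adjusted p = 0.0465), *Mrtfb* did not pass (-0.09, adjusted p = 0.449), and *Myocd*, myocardin itself, had at most 1 count in any library.

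The genes downstream of the oxytocin receptor were mostly expressed. Of 30 listed, 29 were tested, 4 rose and 1 fell, with a median log2 fold change of 0.06. The inositol trisphosphate receptor *Itpr3* measured 370, 367 and 368 CPM in Ctrl and 675, 676 and 710 CPM with BMP7 (0.90, adjusted p = 1.48e-08), in the opposite direction to *Itpr1*. The calcium pump of the endoplasmic reticulum, *Atp2a2*, measured 480, 475 and 483 CPM in Ctrl and 805, 816 and 829 CPM with BMP7 (0.77, adjusted p = 8.94e-08), and *Rgs2*, which turns off Gq, rose from 5.59 CPM ± 0.226 to 8.39 ± 0.557 (SD, n = 3) (0.59, adjusted p = 0.00823). The number that fell was 3 without BMP7 replicate 1, 2 without BMP7 replicate 4, 2 under upper-quartile scaling and 3 without BMP7 replicates 3 and 4.

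The next list holds genes known to be under p63 and genes that anchor basal cells. It does not separate genes that p63 raises from genes that it lowers, and whether any change here followed *Trp63* was not tested. Of 33 listed, 32 were found by these names, 31 were tested, 10 rose and 1 fell, with a median log2 fold change of 0.18. The keratin *Krt15* went from 8.62, 4.96 and 8.51 CPM to 24.2, 29.5 and 24.5 CPM (1.83, adjusted p = 4.70e-07), *Igfbp3*, a binding protein of insulin-like growth factors, rose by 0.94 on the log2 scale (adjusted p = 3.20e-07), and *Krt17* by 0.89 (adjusted p = 1.27e-06). *Zfp750*, a target of p63 in epidermal differentiation, fell (-0.90, adjusted p = 8.38e-05). Of the basal keratins, *Krt14* rose (0.43, adjusted p = 0.00109) and *Krt5* gave a log2 fold change of -0.03 (adjusted p = 0.807). These keratins were named after their values were seen.

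Of 20 basal markers, which include 6 of the 10 genes described here, 16 were tested, 9 rose and 1 fell, with a median log2 fold change of 0.43. The largest rises outside those genes were in *Lgr6*, a receptor of R-spondins found on progenitor cells (1.59, adjusted p = 2.97e-08), and the cytokine *Il17b* (1.06, adjusted p = 2.17e-07), and the membrane peptidase *Mme* fell (-0.87, adjusted p = 5.28e-07). Without Ctrl replicate 2, 2 basal markers fell. Of 24 luminal markers, 17 were tested, 3 rose and 3 fell, with a median log2 fold change of -0.31. *Aldh1a3* (1.56, adjusted p = 0.0194), *Cd24a* (1.32, adjusted p = 6.18e-09) and the transcription factor *Gata3* (1.06, adjusted p = 4.88e-07) rose, and *Krt18* (-0.67, adjusted p = 6.07e-05), *Epcam* (-0.42, adjusted p = 1.20e-04) and *Cldn3* (-0.31, adjusted p = 0.0166) fell. Only 2 luminal markers were called higher in glmTreat and in the fit that required at least 10 counts in every library. The same count of 2 held without Ctrl replicate 2, Ctrl replicate 3, BMP7 replicate 3 or BMP7 replicate 4. Of the luminal risers, *Aldh1a3* had the highest adjusted p. The summed level of the luminal markers moved the other way from their median, from 1746 to 1884 CPM over Ctrl libraries to 2727 to 3130 CPM over BMP7 libraries, and the groups did not overlap. *Cd24a*, the most abundant of them, was at 864, 778 and 893 CPM in Ctrl replicates 1, 2 and 3 and at 2177, 2276 and 1883 CPM in BMP7 replicates 1, 3 and 4. The sum of the basal markers was 7844 to 8148 CPM over Ctrl libraries and 9201 to 10625 CPM over BMP7 libraries. In bulk RNA, fewer cells of a type and less RNA per cell cannot be told apart, and neither can more cells of a type and more RNA per cell.

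**Figure D5:**
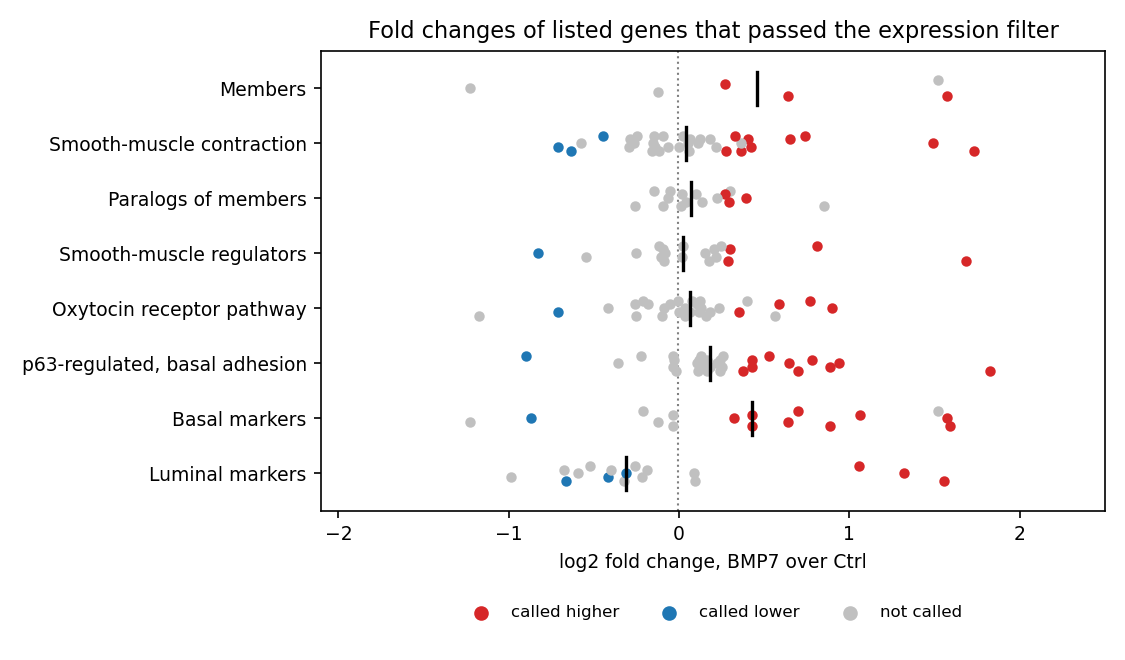
Log2 fold change (BMP7 over Ctrl) of every tested gene of the 10 members and of 7 gene lists, with genes called higher in red, called lower in blue and others in grey. The short black bars are medians and the dotted line is the median over all 15733 genes tested (-0.01). The contractile, regulator and oxytocin receptor lists centre near 0, and the medians are 0.43 for basal markers and -0.31 for luminal markers, of which *Cd24a*, *Gata3* and *Aldh1a3* lie far to the right.

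Markers of the other cell types that carry contractile genes were also counted. Of 18 markers of vascular smooth muscle and pericytes, 7 were tested, 1 rose (*Lmod1*, which passed the filter only through BMP7) and 2 fell (*Mcam* and *Notch3*). Their summed level went from 223 to 286 CPM over Ctrl libraries to 148 to 171 CPM over BMP7 libraries. *Rgs4*, *Myocd*, *Kcnj8*, *Higd1b* and *Vtn* were at or under 3 counts in every library. Of 12 skeletal muscle markers, 7 were tested, *Tnnt3* and *Myh4* rose and none fell (0 also at an unadjusted p under 0.05 and in DESeq2), both risers overlapped between groups, and the sum was 8.65 to 11.8 CPM over Ctrl libraries and 11.6 to 15.6 over BMP7 libraries. Without Ctrl replicate 2, Ctrl replicate 3, BMP7 replicate 3 or BMP7 replicate 4 neither was called. Of 16 fibroblast markers, 11 were tested, 6 rose and 2 fell, and the sum was 2499 to 2833 CPM over Ctrl libraries and 3572 to 4220 over BMP7 libraries. The count of rises was 3 without Ctrl replicate 2, Ctrl replicate 3 or BMP7 replicate 3, and 2 without BMP7 replicates 3 and 4, and the count of falls was 1 without Ctrl replicate 1 or BMP7 replicate 3. Of the 16 adipocyte markers, 12 were tested, 9 rose and 1 fell, and 5 were called higher without BMP7 replicate 3 and none without BMP7 replicates 3 and 4. Of the 16 macrophage markers, 12 were tested, 4 fell and none rose (1 higher at an unadjusted p under 0.05, and 0 higher and 1 lower in DESeq2), and 0 to 9 fell when a library was left out, with none without Ctrl replicate 2, BMP7 replicate 3, BMP7 replicate 4, or BMP7 replicates 3 and 4 together. The fit without both BMP7 replicates 3 and 4 kept 1 BMP7 library and gave log2 fold changes of 0.63 for *Trp63*, 1.61 for *Oxtr* and 0.41 for *Tpm2*. When only BMP7 replicate 3 was left out, *Tpm2* was not called (adjusted p = 0.135). The fibroblast sum was above every Ctrl library in BMP7 replicate 1 too (3572 CPM), and the part of fibroblasts and of other cell types in the members' values was not tested.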

How the data were processed

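The members and the gene lists were chosen with earlier results of these data known. The authors aligned read pairs with subjunc (Subread 2.0.3, per the submitters' processing notes), counted fragments per gene name with featureCounts 2.0.1, and deposited the counts without normalization, together with each gene's summed exon length. The methods name mm10 and GENCODE vM30, and the header names an mm39 annotation, whose coordinates are given for genes. Per the file headers, strand was not used, and fragments mapping to several places or several genes were not counted. The numbers of the BMP7 columns do not match those in the labels, so these libraries were matched to their group only.

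Counts were analysed in R 4.3.3 with edgeR 4.0.16 (filter by expression, TMM normalization, quasi-likelihood test of 3 BMP7 against 3 Ctrl libraries, Benjamini-Hochberg adjustment). Standard errors are the log2 fold change over the square root of F. CPM and FPKM use TMM-scaled totals and the deposited exon lengths. Exact permutation tests used log2 CPM with a prior count of 2 for members. Intervals and floors cover counting error or the spread between libraries, and genes with few counts are limited by depth. The named genes are all members, their relatives, the BMP targets and, of each other list, at most 3 called higher and 3 called lower with the largest changes. Alternatives were DESeq2 1.42.0, other scalings, filters and fold thresholds, and leaving out libraries. The fit that left out BMP7 replicates 3 and 4 was added once the data had been seen, and assumes that the lone BMP7 library varies like Ctrl. Near copies were searched with BLAST 2.17.0. The tests were tried on simulated counts before use.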

Additional observations from a re-analysis of the deposited data

How the results depend on the processing

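The calls of *Trp63* and *Oxtr*, and the absence of a member called lower, held in all of the other tests, scalings, filters and left-out libraries, except that *Trp63* is under a fold change of 2. With that threshold 1 member (*Oxtr*), 4 genes of the contraction, paralog, regulator, oxytocin receptor and p63 lists (35 in the report) and 364 of all genes tested (1788 in the report) were called. With glmTreat, which tests against the fold of 1.2 itself, 2 members, 18 listed genes and 748 genes were called, as *Tpm2* was lost. Leaving out each library in turn gave 2 to 3 members called higher, 30 to 43 listed genes and 1302 to 1966 genes, of which 563 were lower without Ctrl replicate 2 (846 in the report). Leaving out each library gave *Mylk* log2 fold changes of -0.28 to 0.07, with the sign turned without Ctrl replicate 1 (0.030) and BMP7 replicate 1 (0.068), at adjusted p values of 0.540 to 0.966 over its alternatives, and the cause was not tested. *Tpm2* lost its call in 6 of 11 alternatives (adjusted p 0.0014 to 0.199 over all 11), and *Myh11* passed in 1 of 10 (0.0298 to 0.213). Few counts limit *Acta2*, *Myh11* and the 4 members that were not tested, and for *Tagln* fragments in shared exon bases were also left out. No paired analysis was possible because the column numbers of the BMP7 libraries cannot be matched to the replicate numbers in the labels.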
